A study of Mus musculus with 15 samples.

Results

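The genes described here are 45 mouse genes of G2 phase and mitosis: the cyclins and CDK1 that drive entry, the mitotic kinases, the spindle checkpoint and anaphase machinery, and the motor, centromere, spindle and chromosome proteins. They were taken from the deposited gene counts as the entries whose Ensembl identifier belongs to a written list of such genes, 45 of 52636 entries. The match used no measured value, but the list was chosen with earlier results of these data known. The RNA of the 45 genes was measured in epiblast-like cells (EpiLCs) made from a mouse embryonic stem cell line, CRAFR26, which carries a c-RAF construct switched on by tamoxifen, so that adding 4-hydroxytamoxifen (4OHT) starts ERK signalling. The stem cells were first moved towards a state called RSC for 2 passages and then kept for 48 h in EpiLC medium with bFGF (12 ng/ml), Activin A (20 ng/ml) and XAV939 (1 µM). All groups carried the construct and all received the FGF receptor inhibitor PD17 (250 nM) for 2 h first. Cells of the 0h group (n = 3) got no 4OHT, those of 2h (n = 4) got 250 nM 4OHT for 2 h and those of 4h (n = 4) for 4 h, and those of rev (n = 4) got 4OHT for 4 h and after that a MEK inhibitor for 2 h. Each sample belongs to clone 4 (7 samples) or clone 8 (8 samples) of this line. Only 1 of the 0h samples is of clone 4, and all other groups have 2 of either clone. The labels give no untreated group and no group with 4OHT in a line without the construct, so ERK signalling and the drug cannot be told apart here. They also give no group kept 2 h longer after 4 h of 4OHT without the MEK inhibitor. In rev, MEK inhibition and the added time therefore cannot be told apart. Within a clone nothing says that the replicates came from separate cultures, so p-values measure only the spread between these samples, which may be technical.

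Entry into mitosis is driven by CDK1 bound to cyclin A and B, once CDC25 phosphatases remove its inhibitory phosphates. The exit is driven by the anaphase-promoting complex (APC/C), an enzyme that attaches ubiquitin to cyclin B and securin, with CDC20 as its activator and UBE2C as the enzyme that hands it ubiquitin. Many of these genes are transcribed late in the cycle through a promoter element called the CHR (cell cycle genes homology region), bound by the MuvB complex with MYBL2 and FOXM1, together with CCAAT boxes bound by NF-Y. Pluripotent cells divide quickly and express these genes at a high level.

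Promoters are shown first, because many of these genes share a promoter element. RefSeq gave a promoter (250 bases before to 50 after the start, GRCm38.p6) for 37 of the 45 genes, in 40 entries since 3 genes had more than 1. The CHR was searched as TTTGAA and TTCGAA, the CCAAT box as CCAAT and an E2F site as GCGGGAA, each on both strands, where the reverse of a CCAAT box reads ATTGG and that of TTTGAA reads TTCAAA. A CHR in either form was in 33 of the 40 entries (82.5%) and in 19.2% of all 32851 promoters of the same length. A CCAAT box was in 32 (80%) and in 37.4% of all, and both were in 30 (75%) and in 7.52% of all. The E2F letters were in 0 of the 40 and in 4.6% of all. The 4 promoters printed here belong to the genes with the smallest adjusted p in 4h vs 0h, 2 of them higher at 4h (Ube2c and Ttk) and 2 lower (Cdc20 and Ncapd2). Capitals mark CHR and CCAAT letters on either strand; in Ube2c a CCAAT and an ATTGG overlap.
Ube2c: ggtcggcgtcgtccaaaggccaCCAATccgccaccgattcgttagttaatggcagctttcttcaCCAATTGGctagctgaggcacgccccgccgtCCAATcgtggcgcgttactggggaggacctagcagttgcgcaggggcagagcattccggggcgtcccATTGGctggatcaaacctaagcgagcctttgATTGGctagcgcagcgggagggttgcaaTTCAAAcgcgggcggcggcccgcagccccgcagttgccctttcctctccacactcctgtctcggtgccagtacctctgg
Ttk: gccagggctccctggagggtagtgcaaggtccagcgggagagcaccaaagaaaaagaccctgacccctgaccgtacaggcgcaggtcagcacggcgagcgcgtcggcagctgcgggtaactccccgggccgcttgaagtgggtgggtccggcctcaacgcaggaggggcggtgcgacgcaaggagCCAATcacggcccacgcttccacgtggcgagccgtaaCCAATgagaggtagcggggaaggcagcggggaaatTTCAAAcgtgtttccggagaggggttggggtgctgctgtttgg
Cdc20: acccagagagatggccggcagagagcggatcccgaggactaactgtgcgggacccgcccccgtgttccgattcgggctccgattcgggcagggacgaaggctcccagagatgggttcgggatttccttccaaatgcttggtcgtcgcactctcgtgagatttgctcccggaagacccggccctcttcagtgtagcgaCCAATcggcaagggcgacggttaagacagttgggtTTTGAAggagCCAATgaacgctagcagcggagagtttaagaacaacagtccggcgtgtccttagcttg
Ncapd2: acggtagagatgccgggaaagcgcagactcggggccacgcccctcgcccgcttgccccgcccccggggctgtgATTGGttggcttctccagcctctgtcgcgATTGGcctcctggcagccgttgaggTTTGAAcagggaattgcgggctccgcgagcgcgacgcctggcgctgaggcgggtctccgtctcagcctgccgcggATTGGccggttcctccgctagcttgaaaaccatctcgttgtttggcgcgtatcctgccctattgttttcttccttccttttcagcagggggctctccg

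The windows printed are chr2:164769679-164769978 (Ube2c, plus strand), chr9:83834439-83834738 (Ttk, plus), chr4:118437294-118437593 (Cdc20, minus) and chr6:125191537-125191836 (Ncapd2, minus). The CHR letters began 29 bases before the start in Ube2c, 18 before in Cdc20, 123 before in Ncapd2 and 8 bases after the start in Ttk. The same elements were thus present in promoters of genes that moved in opposite directions. A CHR was in 6 of 7 entries of genes called higher at 4h, in 7 of 8 of those called lower and in 20 of 25 of those not called. CCAAT letters were in 4 of 7, 7 of 8 and 21 of 25. These are matches of letters in a window, not measured binding.

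The libraries held 1552022 to 13004556 counts, and the 4h libraries had the lowest totals, 1552022 to 6658950. With the mitochondrial genes and the 20 of highest count set aside, the 4h libraries kept 525094 to 1456849 counts and the other groups 2310615 to 6237654, and mitochondrial genes took 7.21 to 12.4% of the counts at 4h against 2.67 to 6.98% elsewhere. The 4 genes used to check the induction of ERK output (Spry2, Spry4, Dusp6 and Egr1) summed to 9.29 to 18.2 CPM, normalised read counts on libraries scaled by TMM, at 0h, 592.7 to 1277 at 2h, 136.1 to 465 at 4h, then 86.9 to 154.3 in rev. The 8 epiblast and formative markers summed to 1337 to 1620 CPM at 0h and 839 to 990.3 at 4h. Within this list Dnmt3b (means of 935.3 and 416.3 CPM) and Pou5f1 (167.9 and 98.98) fell from 0h to 4h by edgeR, and Sox2 (22.3 and 111.2), Nanog (14.2 and 50.4) and Otx2 (12.3 and 25.1) rose. Nanog varied widely at 4h (SD 39 CPM). The remaining means, those of Fgf5 (23.2 and 9.03), Lin28a (176.9 and 143.9) and Pou3f1 (79.3 and 64.0), were also lower at 4h. Markers of other states were low at 0h, with 15.7 to 22.9 CPM over 5 naive pluripotency genes and 2.38 to 4.85 over the neural genes Sox1 and Pax6. At 4h the naive sum was 37.0 to 136.1 and the neural sum 37.9 to 50.5. Primitive endoderm markers summed to 2.26 to 5.16 CPM over all 15 libraries. Mesendoderm markers summed to 2.81 to 3.40 CPM at 0h, 4.36 to 5.45 at 2h, 5.69 to 11.6 at 4h, then 6.74 to 11.3 in rev. The part of depth, of mitochondrial share and of these markers in the results below was not tested.

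All 45 genes had counts in all 15 libraries, with a lowest count of 9 (Cdc25b), and all passed the filter on low counts. They took 5052 to 70898 counts of a library. Per length of exon, and averaged over all libraries, Cdc20 had the highest level (64.0 CPM per kb), followed by Top2a (47.2), Ncapd2 (33.7), Ube2c (30.2), Plk1 (28.9) and Mki67 (28.6). At 4h alone the order differed, with Top2a (47.8 CPM per kb) above Cdc20 (44.5) and Ube2c (42.2) above Ncapd2 (28.1). The lowest levels over all libraries were those of Cdc25c (1.55 CPM per kb), Kif18a (2.47), Cdc25b (2.78) and Pttg1 (3.17). The exon length used is that of all annotated exons of a gene merged, so these orders depend on the annotation. Kif18a, for example, had 24.3 CPM over 9.83 kb and Pttg1 6.35 CPM over 2 kb. The summed level of the 45 genes was 3568.5, 3702.6 and 3730.4 CPM at 0h and 3797.7 to 4037.2 at 2h. At 4h it was 3086.1 and 3313.1 in the clone 4 libraries and 3938 and 4039.6 in those of clone 8, and in rev 3348.2 to 3638.4. On this scaling the 4h libraries therefore spanned the range of all the others, and they split by clone. As shares of all counts the 4h libraries lay at the low end and did not separate by clone. The 45 genes took 5052 of 1552022 and 13422 of 6658950 counts in clone 4, and 17299 of 6209289 and 10716 of 3492073 in clone 8. With the mitochondrial genes and the 20 of highest count set aside, the shares were 0.9621 and 1.001% in clone 4 and 1.187 and 1.216% in clone 8. In bulk RNA, fewer cells in G2 and mitosis and less RNA of these genes per cell cannot be told apart.

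**Figure D1:**
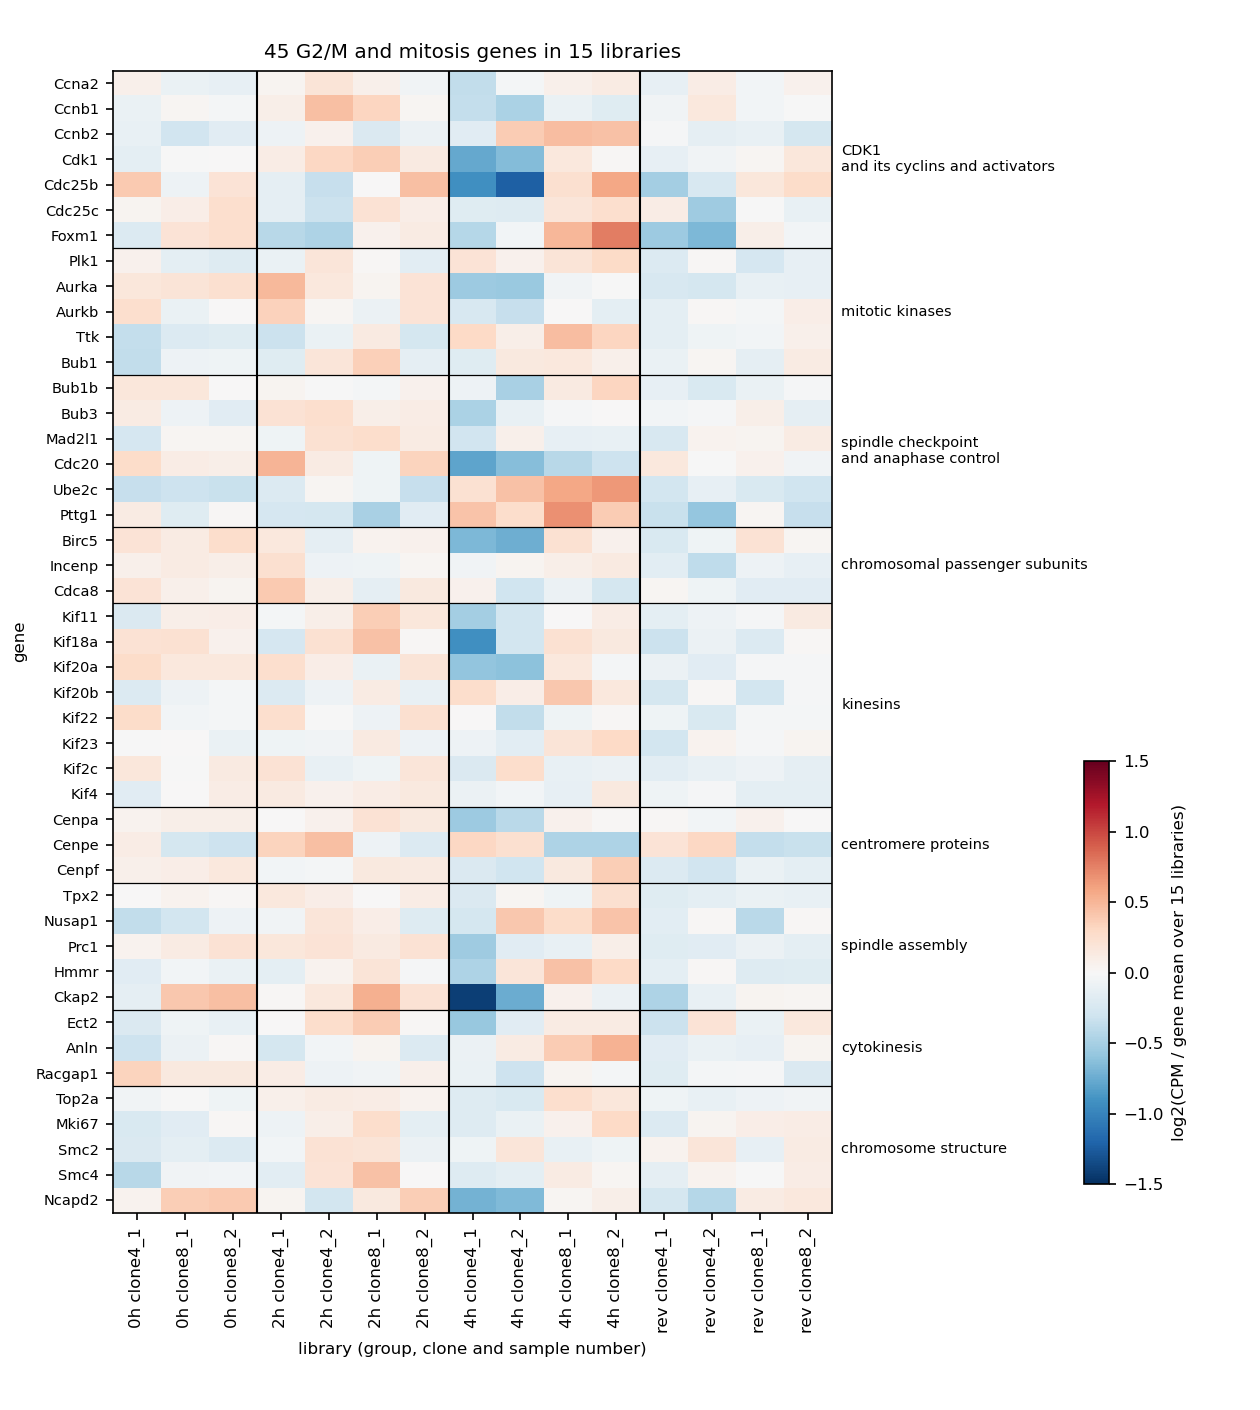
Level of each of the 45 genes (vertical axis, grouped by role) in each of the 15 libraries (horizontal axis, ordered by group and clone), as log2 of its CPM over its mean CPM in all 15 libraries, red above and blue below the mean. The deepest blue cells (Ckap2 and Cdc25b) are in the clone 4 libraries at 4h, and Ube2c is red and Cdc20 blue in all 4 libraries at 4h.

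Between 0h and 2h, when ERK output had its highest values, none of the 45 genes was called by edgeR's quasi-likelihood test (Benjamini-Hochberg adjusted p under 0.05), where 6.45% of all 13451 tested genes were. Without adjustment 8 of the 45 (17.8%, against 21.1% of all tested genes) passed a p of 0.05, all with higher values at 2h (11.7% of all genes passed in that direction): Smc4, Smc2, Cdk1, Ect2, Ccnb1, Kif11, Bub1 and Cenpe. The largest of these log2 differences was 0.34 ± 0.11 (SE) for Smc4, with an adjusted p of 0.0598 by edgeR. DESeq2 called 1 (9.39% of all genes). The median log2 difference was 0.07 over the 45 genes and 0.01 over all tested genes.

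At 4h the genes moved in both directions. Against 0h, 15 of the 45 (33.3%) were called by edgeR, 7 higher and 8 lower, and of all tested genes 39.4% were called, 20.5% higher and 18.9% lower. The members' share was thus near that of all genes. Higher were Ube2c, Ttk, Ccnb2, Nusap1, Anln, Kif20b and Plk1, and lower were Cdc20, Ckap2, Ncapd2, Aurka, Kif20a, Birc5, Racgap1 and Prc1. The largest rise was 1.76-fold (Ube2c), and the largest fall left Cdc20 at 0.621 of its 0h level. The median log2 difference was -0.03 against 0.03 over all tested genes. Without the clone 4 library of 0h the count was 9, and Nusap1, Birc5, Racgap1, Kif20a, Kif20b and Prc1 were among those lost; 8 of the 15 stayed called whichever library was left out. Plk1 was lost on leaving out 5 of the 7 libraries in turn.

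Against 2h, 21 of the 45 were called by edgeR, 7 higher and 14 lower, where 38.9% of all tested genes were called, 19.7% higher and 19.2% lower. The 14 that fell are 31.1% of the members. The largest rises were those of Pttg1, Ube2c, Ttk, Foxm1 and Ccnb2, and the largest falls those of Cdc20, Ckap2, Aurka, Cdk1 and Ccnb1. The median difference was -0.11 over the 45 genes and -0.01 over all. This comparison shares the 4h libraries with 4h vs 0h, so its values are not a second set of evidence for them. Without the term for clone, 12 were called, 6 higher (16.1% of all genes) and 6 lower (15.6%).

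All these directions are relative to the typical gene, because TMM sets the median of all genes near 0. Scaled to total counts, the median of all genes moved to -0.73 for 4h against 0h, to -0.57 for 4h against 2h and to 0.45 for rev against 4h. In 4h vs 0h all called members were then lower, 30 of them (46.2% of all genes were called lower). The same held for 27 members when 4h was set against 2h (36.2% of all), and in rev vs 4h 4 members were called, each higher (20.6% of all). Without a filter on low counts, 4 members were higher and 13 lower from 0h to 4h (6.83 and 9.86% of all genes), 2 and 20 from 2h to 4h (6.41 and 10%), and 5 and 4 from 4h to rev (7.72 and 4.95%).

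**Figure D2:**
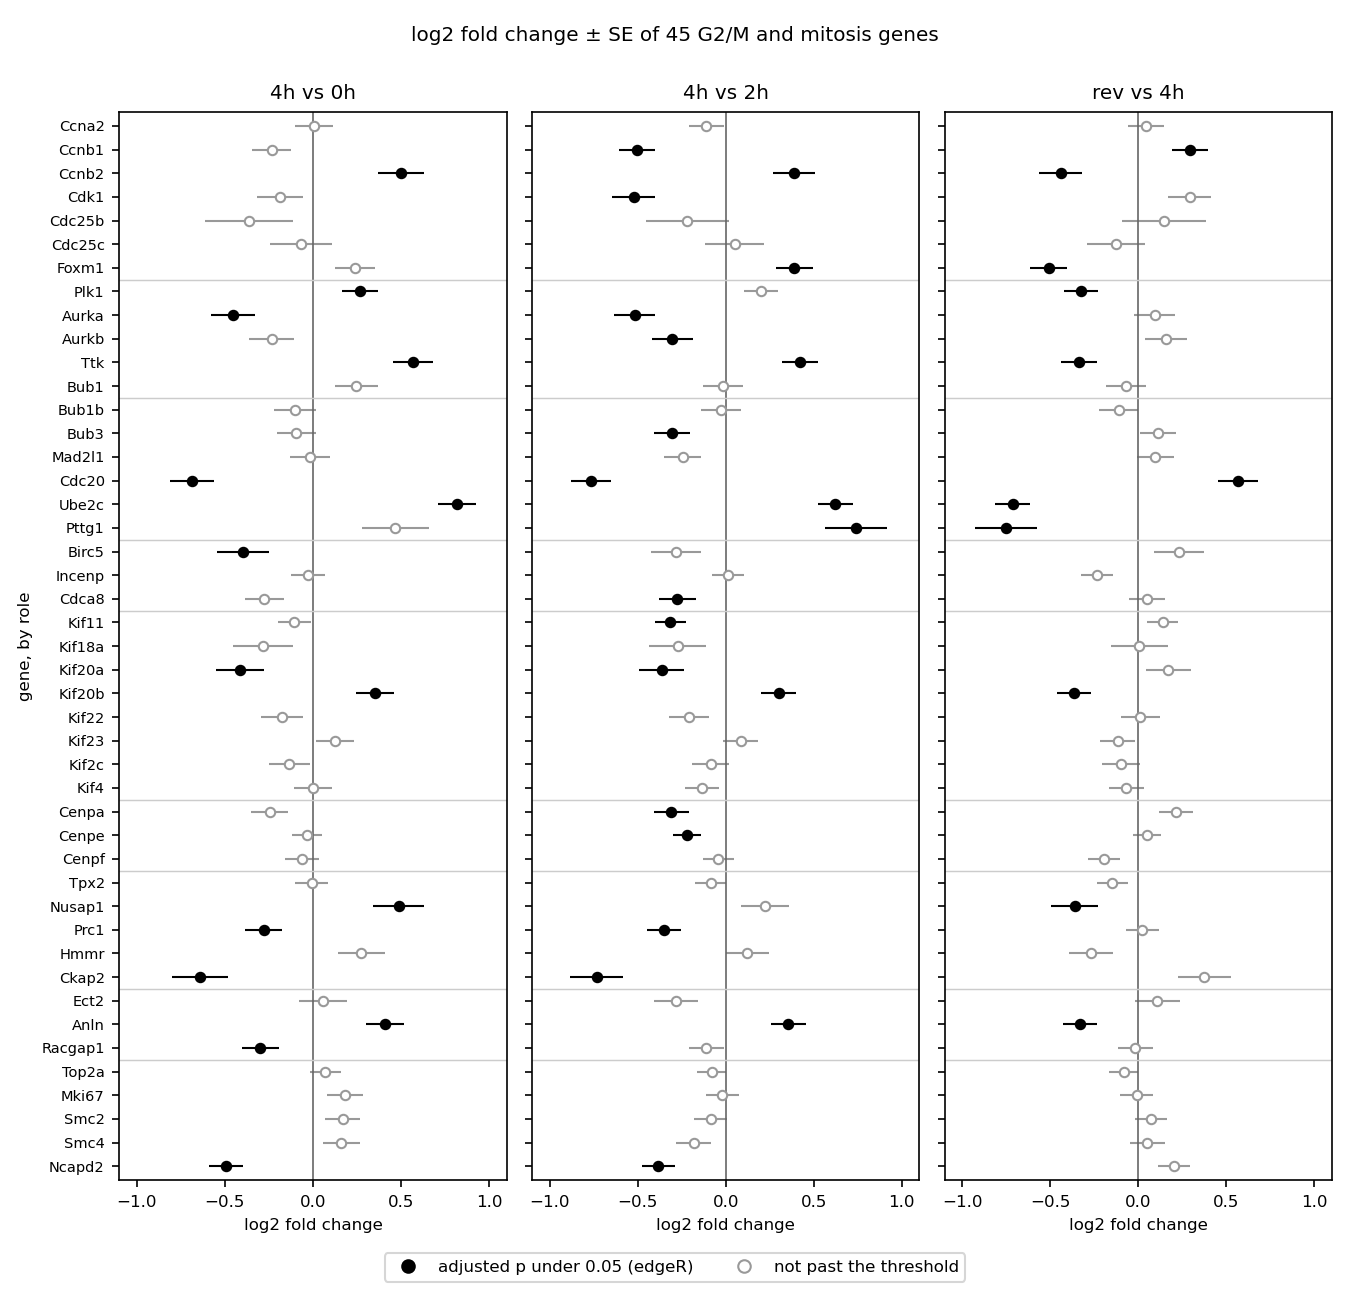
log2 fold change with its standard error (horizontal axis) of each of the 45 genes (vertical axis, by role) in 3 comparisons (4h vs 0h, then 4h vs 2h, then rev vs 4h), on TMM-scaled counts; filled points have an edgeR adjusted p under 0.05. Ube2c and Cdc20 lie at the right and left ends in the first panel and change sides in the rev vs 4h panel, and with total count scaling 6 of the 7 filled points on the right of the first panel turn negative.

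Among CDK1, its cyclins and activators, the cyclins went different ways. Ccnb1, the cyclin B that carries CDK1 into mitosis, had 81.2, 88.8 and 85.4 CPM at 0h (clone4_1, clone8_1, clone8_2), 92.6, 119, 108.5 and 88.7 at 2h (clone4_1, clone4_2, clone8_1, clone8_2), 67.8, 62.7, 81.3 and 76.5 at 4h, then 84.2, 97.1, 84.6 and 87.0 in rev. Every 4h library lay below every 2h and every rev library. Ccnb1 fell by 0.51 ± 0.10 on the log2 scale from 2h to 4h (edgeR adjusted p = 0.000535) and was 0.29 ± 0.10 higher in rev (adjusted p = 0.034), a call lost on leaving out 4 of 8 libraries in turn. Ccnb2, the other main B-type cyclin, had 29.2, 25.9 and 28.0 CPM at 0h, 30.0, 33.0, 27.2 and 29.6 at 2h, 28.1, 41.2, 43.5 and 43.0 at 4h, then 31.2, 28.7, 29.2 and 26.4 in rev. Of the 4h libraries, 3 lay above all others, and clone4_1 stayed at the level of 0h. Ccnb2 rose by 0.50 ± 0.13 from 0h to 4h (adjusted p = 0.0046, on total counts -0.25) and fell by 0.44 in rev vs 4h (adjusted p = 0.00801). Ccna2, cyclin A, had a log2 difference of 0.01 ± 0.11 in 4h vs 0h.

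Cdk1, the kinase itself, had 52.8, 58.3 and 58.5 CPM at 0h and 63.0, 72.3, 75.0 and 64.2 at 2h. At 4h it had 34.2 and 37.3 CPM in clone 4 and 64.9 and 58.8 in clone 8, and in rev 53.7, 56.4, 59.6 and 65.4. Only the clone 4 libraries at 4h lay below all others. The difference between 4h and 2h was -0.52 ± 0.12 over both clones (edgeR adjusted p = 0.00194). Cdc25b, one of the phosphatases that activate CDK1, showed the same split at a low level: 13.6, 9.83 and 12.0 CPM at 0h, 9.42, 8.14, 10.4 and 14.1 at 2h, 5.50 and 4.44 in clone 4 but 12.3 and 15.5 in clone 8 at 4h, and 7.29, 8.78, 11.7 and 12.6 in rev. It was not called in any comparison over both clones, and neither was the related phosphatase gene Cdc25c (-0.07 ± 0.18 in 4h vs 0h). Foxm1, a transcription factor of many genes of this list, had 42.0, 56.1 and 57.7 CPM at 0h, 36.5, 35.4, 50.8 and 52.9 at 2h, 36.04, 47.15, 68.5 and 82.9 at 4h, then 33.2, 30.6, 51.6 and 47.3 in rev. Its groups overlapped, and clone 8 was above clone 4 throughout. Its rise from 2h to 4h was 0.39 ± 0.11 (adjusted p = 0.00556, on total counts -0.16) and its fall in rev 0.51 ± 0.11 (adjusted p = 0.000863).

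Of the 5 mitotic kinases, Ttk rose and Aurka fell. Ttk (MPS1), which starts spindle checkpoint signalling at kinetochores, had 26.4, 29.4 and 29.7 CPM at 0h, 27.0, 31.6, 37.1 and 28.1 at 2h, 41.54, 36.04, 46.44 and 42.2 at 4h, then 30.6, 32.4, 32.7 and 35.6 in rev. All 4h libraries were above all 0h and rev libraries, and 1 of them was below the highest 2h library. The rise was 0.57 ± 0.11 from 0h to 4h (edgeR adjusted p = 0.000439, on total counts -0.14), followed by a fall of 0.34 ± 0.10 in rev (adjusted p = 0.0167). Aurka, the spindle pole kinase Aurora A, had 61.06, 62.03 and 63.96 CPM at 0h, 76.4, 60.6, 56.1 and 62.8 at 2h, 37.3, 36.8, 52.4 and 53.9 at 4h, then 45.8, 45.2, 50.47 and 50.01 in rev. The 4h libraries lay below all those of 0h and 2h, the clone 4 ones furthest, and the rev libraries were still below all those of 0h. Aurka fell by 0.45 ± 0.13 in 4h vs 0h (adjusted p = 0.00656) and by 0.52 ± 0.12 in 4h vs 2h (adjusted p = 0.00145), and rev vs 4h gave 0.09 ± 0.12 (adjusted p = 0.592).

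Plk1, the Polo kinase of mitotic entry and centrosome maturation, had 66.3, 57.6 and 55.4 CPM at 0h, 59.2, 72.0, 64.1 and 57.1 at 2h, 73.3, 66.2, 72.4 and 77.7 at 4h, then 55.3, 64.4, 53.4 and 58.3 in rev. The groups 0h and 4h overlapped by 1 library and rev lay wholly below 4h. It was 0.27 ± 0.10 higher in 4h vs 0h (edgeR adjusted p = 0.0453, on total counts -0.45), a call lost under each of the 9 other settings tried, and fell by 0.32 ± 0.10 in rev vs 4h (adjusted p = 0.0132). Aurkb, Aurora B of the chromosomal passenger complex, had 37.8, 29.7 and 31.7 CPM at 0h, 40.2, 32.3, 29.9 and 36.5 at 2h, 26.9, 24.9, 31.9 and 28.7 at 4h, then 28.59, 32.01, 31.02 and 33.93 in rev. Its groups overlapped, and only 4h vs 2h was called (-0.30 ± 0.12, adjusted p = 0.0451), a call lost on leaving out 5 of 8 libraries in turn and under 6 of 9 other settings, DESeq2 among them. Bub1, a checkpoint kinase at kinetochores, had a log2 difference of 0.25 ± 0.12 in 4h vs 0h, with -0.02 ± 0.11 in 4h vs 2h.

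The checkpoint and anaphase genes held the largest changes of all 45, in opposite directions. Ube2c (ENSMUSG00000001403, chromosome 2, 164769898 to 164778822, plus strand, mm10), the ubiquitin-conjugating enzyme of the APC/C, had 61.8, 63.2 and 62.2 CPM at 0h, 68.0, 80.0, 74.8 and 61.7 at 2h, 91.6, 106.6, 117.2 and 122.9 at 4h, then 64.6, 71.9, 67.1 and 63.9 in rev. All 4h libraries were above all 11 others. Ube2c rose by 0.82 ± 0.11 from 0h to 4h (edgeR adjusted p = 5.61e-06) and by 0.62 ± 0.10 from 2h (adjusted p = 4.27e-05), and fell by 0.71 ± 0.10 in rev (adjusted p = 1.33e-05). On total counts 4h vs 0h was 0.09 and not called (adjusted p = 0.804). Cdc20 (ENSMUSG00000006398, chromosome 4, 118432901 to 118437352, minus strand, mm10), the activator of the APC/C and a target of the checkpoint, had 145.1, 128.9 and 127.6 CPM at 0h, 170.8, 130.1, 114.6 and 150.7 at 2h, 69.0, 77.0, 89.9 and 96.5 at 4h, then 133.2, 119, 125.5 and 115.7 in rev. All 4h libraries were below all 11 others. Cdc20 fell by 0.69 ± 0.12 from 0h (adjusted p = 0.000163) and by 0.77 ± 0.12 from 2h (adjusted p = 2.35e-05), and rose by 0.57 ± 0.12 in rev (adjusted p = 0.000753).

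The ratio of Ube2c to Cdc20 counts within a library does not depend on how libraries are scaled; it was chosen after the values of both genes were seen and gets no test. It was 0.426 to 0.491 at 0h, 0.398 to 0.653 at 2h, 1.327, 1.385, 1.304 and 1.273 at 4h, then 0.485 to 0.604 in rev. The 4 values at 4h, in both clones, lay above 1 and all others below. All 4h libraries were also shallower than all others. With the mitochondrial genes and the 20 of highest count set aside, they kept 525094 to 1456849 counts, against 2310615 to 6237654 elsewhere. The ratio was therefore not seen at a common depth, and the part of depth in it was not tested. The shallowest library, 4h clone4_1, gave its ratio from 150 Ube2c and 113 Cdc20 counts. Exons of Ube2c overlap 592 bases of Tnnc2 on the opposite strand, and Tnnc2 had 0 counts in all libraries. Exons of Cdc20 overlap 53 bases of Elovl1, which had a mean of 6.17 CPM.

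Pttg1 encodes securin, the inhibitor of separase that the APC/C destroys. It had 6.91, 5.62 and 6.42 CPM at 0h, 5.33, 5.31, 4.54 and 5.62 at 2h, 8.55, 7.65, 10.2 and 8.29 at 4h, then 5.05, 4.23, 6.49 and 4.98 in rev, so that all 4h libraries were above all others. Its rise from 2h to 4h was 0.74 ± 0.18 (edgeR adjusted p = 0.0022) and its fall in rev 0.75 ± 0.18 (adjusted p = 0.00272), while 4h vs 0h missed the threshold (0.47 ± 0.19, adjusted p = 0.0519). On total counts 4h vs 2h was 0.17 (edgeR adjusted p = 0.699) and rev vs 4h -0.33 (adjusted p = 0.471), neither of them called. The call in rev was also lost with thinned counts. The 4h libraries held 14, 31, 45 and 22 Pttg1 counts. The checkpoint proteins that hold the APC/C in check were not called in 4h vs 0h: Bub1b (BUBR1) had -0.10 ± 0.12, Bub3 -0.10 ± 0.11 and Mad2l1 (MAD2) -0.02 ± 0.11. Bub3 fell by 0.30 ± 0.10 in 4h vs 2h (adjusted p = 0.0234), where Mad2l1 had -0.24 ± 0.10 (adjusted p = 0.0705).

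**Figure D3:**
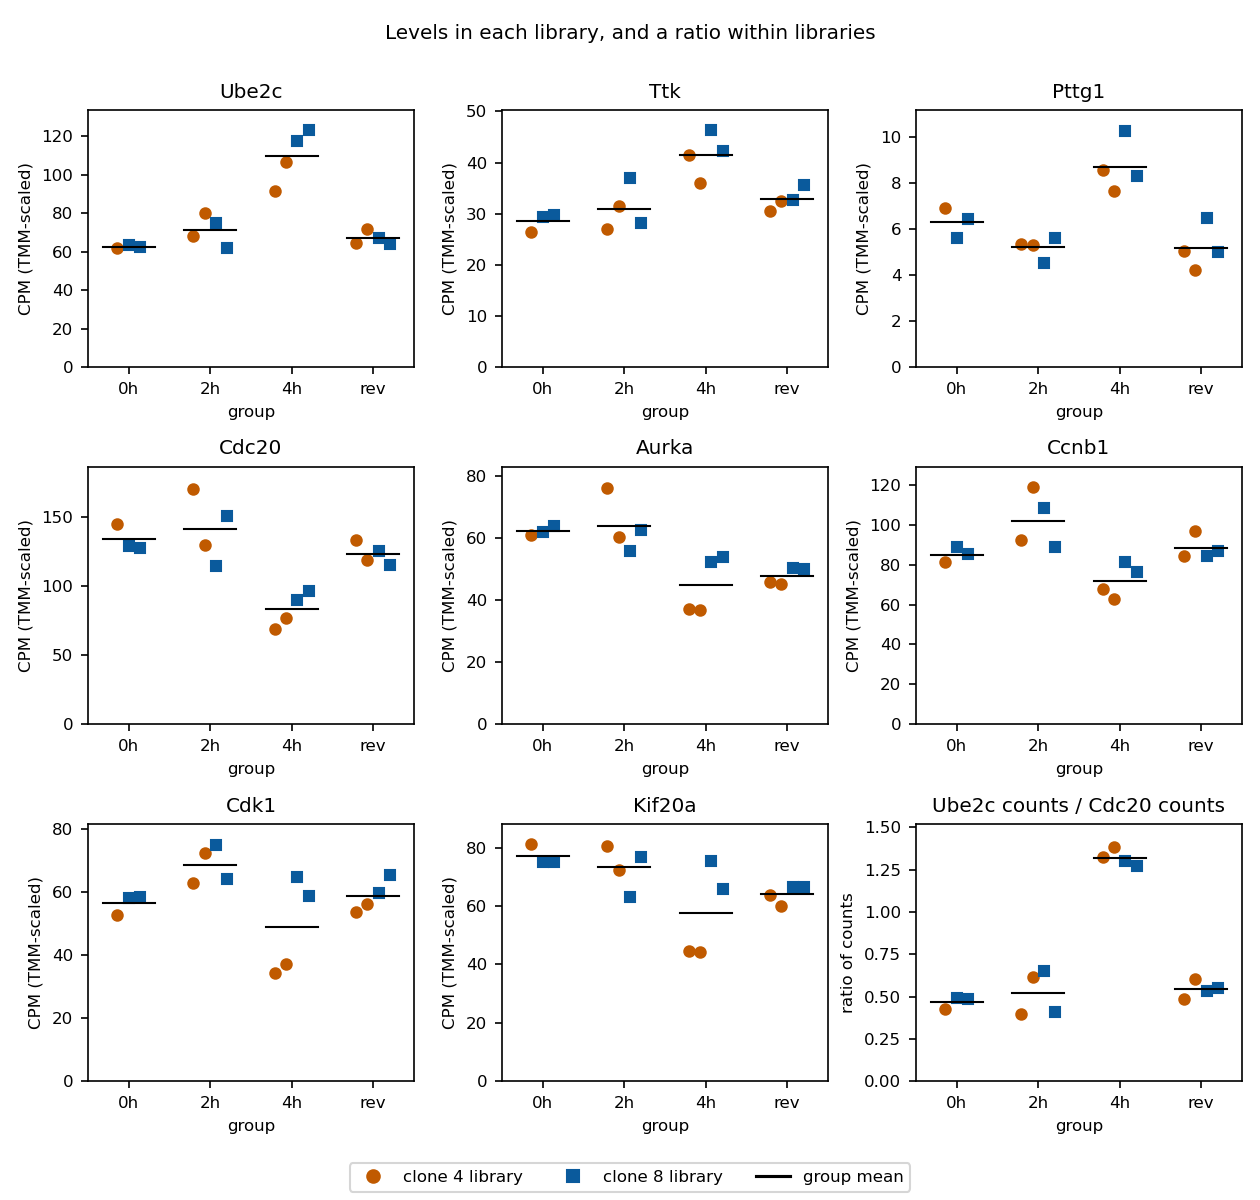
CPM on TMM-scaled libraries (vertical axes, from 0) of 8 genes in each library by group (horizontal axes), and the ratio of Ube2c to Cdc20 counts in the last panel; circles are clone 4, squares clone 8, lines group means. Ube2c, Pttg1 and the ratio are higher in all 4h libraries than in any other, Cdc20 is lower, and Cdk1 and Kif20a are low only in the clone 4 libraries at 4h.

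Of the chromosomal passenger subunits that act with Aurora B, Birc5 (survivin) had 35.0, 33.0 and 36.3 CPM at 0h, 33.8, 27.6, 31.3 and 31.8 at 2h, 18.9 and 18.3 in clone 4 at 4h with 35.5 and 31.7 in clone 8, and 25.9, 28.9, 35.2 and 30.9 in rev. Only the 4h libraries of clone 4 stood apart, and the difference from 0h over both clones was -0.40 ± 0.15 (edgeR adjusted p = 0.0389, and 0.264 without the clone 4 library of 0h). Cdca8 (borealin) fell by 0.27 ± 0.10 in 4h vs 2h (adjusted p = 0.0392). This call went on leaving out 4 of 8 libraries in turn and under 3 of 9 other settings. Incenp, the scaffold of the complex, had -0.03 ± 0.10 in 4h vs 0h. For Incenp, rev vs 4h gave -0.23 ± 0.09 (adjusted p = 0.053).

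Among the 8 kinesins, Kif20a and Kif20b moved apart. Kif20a (MKLP2), which carries the passenger complex to the spindle midzone, had 81.3, 75.0 and 75.2 CPM at 0h, 80.5, 72.5, 63.1 and 76.9 at 2h, 44.59 and 44.18 in clone 4 and 75.35 and 65.97 in clone 8 at 4h, and 60.2 to 66.7 in rev. It fell by 0.41 ± 0.14 in 4h vs 0h (edgeR adjusted p = 0.0192, and 0.153 without the clone 4 library of 0h), and the clone 8 libraries stayed within the range of 0h and 2h. Its exons overlap those of Cdc23 by 1271 of 4338 bases; Cdc23 had a mean of 45.8 CPM and a log2 difference of 0.08 (adjusted p = 0.594), and strand-specific counting is not given in the sources used here. Kif20b (MPP1), a motor of late cytokinesis, had 57.8, 63.3 and 65.1 CPM at 0h, 57.7, 63.0, 72.7 and 61.4 at 2h, 80.0, 71.3, 87.9 and 74.3 at 4h, then 55.4, 67.2, 54.7 and 65.5 in rev. Its 4h libraries were above all of 0h and rev, a rise of 0.35 ± 0.11 from 0h (adjusted p = 0.012, on total counts -0.35) and a fall of 0.37 in rev (adjusted p = 0.00677). Kif11 (Eg5), which pushes the spindle poles apart, fell by 0.31 ± 0.09 in 4h vs 2h (adjusted p = 0.00638). The other five, Kif18a, Kif22, Kif23, Kif2c and Kif4, were not called in any of the 5 group comparisons, with differences from -0.28 (Kif18a) to 0.13 (Kif23) in 4h vs 0h.

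Of the centromere proteins, none was called against 0h. Cenpa, the centromeric histone H3 variant, fell by 0.31 ± 0.10 in 4h vs 2h (edgeR adjusted p = 0.016), from 53.7 to 61.7 CPM at 2h to 36.7 and 40.2 in clone 4 and 55.8 and 53.9 in clone 8. Cenpe, the kinetochore motor CENP-E, fell by 0.22 ± 0.08 (adjusted p = 0.0344). The call of Cenpa was lost on leaving out 2 of 8 libraries in turn and under 2 of 9 other settings. That of Cenpe was lost on leaving out 3 of 8 and under 3 of 9. Cenpf had -0.06 ± 0.10 in 4h vs 0h, with -0.04 ± 0.09 in 4h vs 2h.

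Of the spindle assembly genes, Nusap1 was higher and Ckap2 and Prc1 lower. Ckap2, a microtubule-associated protein, had 64.9, 94.7 and 97.8 CPM at 0h, 72.4, 79.8, 103.4 and 83.2 at 2h, 26.9, 42.7, 74.7 and 67.5 at 4h, then 52.1, 66.3, 73.6 and 73.1 in rev. Within each clone the 4h libraries were below all of 0h and 2h, with a fall of 0.64 ± 0.16 from 0h (edgeR adjusted p = 0.00384) and of 0.73 ± 0.15 from 2h (adjusted p = 0.000814). Nusap1, a microtubule bundling protein, had 38.7, 41.1 and 47.3 CPM at 0h, 48.1, 56.8, 53.6 and 43.7 at 2h, 41.5, 66.2, 60.6 and 67.1 at 4h, then 44.8, 50.6, 37.6 and 50.6 in rev. In 3 of the 4 libraries at 4h it was above all others, and the rise of 0.49 ± 0.15 from 0h (adjusted p = 0.0116, on total counts -0.25) had an adjusted p of 0.0804 without the clone 4 library of 0h. Prc1, which bundles the central spindle, fell by 0.28 ± 0.10 from 0h (adjusted p = 0.0353) and 0.35 ± 0.10 from 2h (adjusted p = 0.00613). The call against 0h was lost on leaving out 5 of 7 libraries in turn and under 3 of 9 other settings. At 4h the level of Prc1 was 56.1 ± 9.67 CPM (SD, n = 4), and rev had 56.9 ± 1.70 (SD, n = 4). Tpx2, the activator of Aurora A, had -0.01 ± 0.09 in 4h vs 0h, and Hmmr, a spindle pole protein, 0.28 ± 0.14 (adjusted p = 0.112).

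Cytokinesis genes split too. Anln (anillin), a scaffold of the contractile ring, had 67.2, 78.1 and 84.1 CPM at 0h, 69.5, 80.9, 85.5 and 72.3 at 2h, 78.2, 90.6, 108.8 and 119.9 at 4h, then 73.9, 78.0, 76.6 and 85.4 in rev. Its groups overlapped through the 4h library clone4_1, and within each clone the 4h libraries were above those of 0h. The rise was 0.41 ± 0.11 from 0h (edgeR adjusted p = 0.00445, on total counts -0.31) and the fall in rev 0.33 ± 0.10 (adjusted p = 0.0137). Racgap1, a subunit of centralspindlin, fell by 0.30 ± 0.10 in 4h vs 0h (adjusted p = 0.0266) from 66.6, 58.7 and 58.5 CPM to 49.5, 42.7, 54.6 and 52.0, with no overlap between the groups, and stood at 49.1 ± 3.64 CPM (SD, n = 4) in rev. Ect2, which activates RhoA at the cleavage site, had 0.06 ± 0.14 in 4h vs 0h, with -0.28 ± 0.13 in 4h vs 2h (adjusted p = 0.0813).

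Of the chromosome structure genes, only Ncapd2 was called in a group comparison. Ncapd2, a subunit of condensin I, had 219.4, 272 and 277.7 CPM at 0h, 217.3, 175.3, 233 and 272.8 at 2h, 129.5, 133.8, 216.3 and 224.7 at 4h, then 175.4, 157.2, 230.5 and 235.3 in rev. Within each clone the 4h libraries were below those of 0h and 2h, and the fall from 0h was 0.50 ± 0.10 (edgeR adjusted p = 0.000435). Top2a, topoisomerase II alpha, which untangles chromosomes, had 409.7, 424.7 and 405.6 CPM at 0h, 447.2, 462.1, 458.5 and 441.6 at 2h, 372.6, 363.8, 507.9 and 477.2 at 4h, then 407, 394.9, 402.5 and 410.9 in rev. Its 4h libraries lay on both sides of all other groups, clone 4 below and clone 8 above, and the difference from 0h was 0.07 ± 0.09. Mki67, the proliferation marker Ki-67, had 245.5, 256.2 and 291.1 CPM at 0h, 274, 306.2, 345.7 and 259.6 at 2h, 251.1, 269.6, 301.4 and 355.1 at 4h, then 250, 297.5, 307.9 and 311.5 in rev. Its groups overlapped (0.18 ± 0.10 in 4h vs 0h, adjusted p = 0.166). The condensin ATPases Smc2 and Smc4 had 0.17 ± 0.10 and 0.16 ± 0.11.

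After 2 h of MEK inhibition some of these genes moved, and most of those that had fallen were not called. With no group kept 2 h longer without the inhibitor, its effect and the added time cannot be told apart. In rev vs 4h, 11 of the 45 were called by edgeR, 2 higher (Cdc20 and Ccnb1) and 9 lower (Ube2c, Pttg1, Foxm1, Ccnb2, Kif20b, Nusap1, Ttk, Anln and Plk1), against 30.8% of all tested genes, 15.1% higher and 15.6% lower. The genes lower in 4h vs 0h other than Cdc20 were not called in rev vs 4h, with log2 differences of 0.38 (Ckap2), 0.23 (Birc5), 0.20 (Ncapd2), 0.17 (Kif20a), 0.09 (Aurka), 0.02 (Prc1) and -0.02 (Racgap1). Nusap1 was lost on leaving out 6 of 8 libraries in turn, Ccnb1 on 4 and Anln on 1. The 4h libraries enter both this comparison and those above, so a reversal is partly built into the 2 sets of values. Against 0h, the comparison that leaves the 4h libraries out of the contrast, rev had 0 of 45 called by edgeR, where 11.2% of all tested genes were called, 4.66% lower. At an unadjusted p of 0.05, 10 passed (22.2%, against 26.5% of all tested genes), 8 lower and 2 higher, and DESeq2 called 7, all lower (6.97% of all genes were lower by DESeq2). The smallest adjusted p by edgeR were those of Racgap1 (-0.32 ± 0.10, adjusted p = 0.0511), Ncapd2 (-0.29 ± 0.10, 0.0564) and Aurka (-0.36 ± 0.12, 0.0621). With a fit on the 0h and rev libraries alone 13 were called, all lower (11.6% of all genes). The return to 0h is therefore not shown for the genes that fell. Ube2c in rev was 0.10 ± 0.11 from its 0h level, and Cdc20 -0.12 ± 0.12.

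The clones were compared within 2h, 4h and rev, as clone 4 had only 1 library at 0h. On TMM-scaled counts they differed most at 4h. There, 32 of the 45 genes (71.1%) had both clone 4 libraries below both clone 8 libraries, as did 27.7% of all tested genes, and 1 gene had both above (2.22%, against 23.1% of all). The count was 8 (17.8%, against 22.1% of all) at 2h and 17 (37.8%, against 24.2%) in rev. The median log2 ratio of clone 8 to clone 4 was 0.32 at 4h, with 40 genes above 0 and 5 below and a range from -0.74 (Cenpe) to 1.48 (Cdc25b), and 0.00 at 2h and 0.09 in rev. Over all tested genes it was 0.03 at 4h. The clone 4 libraries at 4h also had lower naive markers (41.5 and 37.0 CPM, against 136.1 and 123.6 in clone 8) and higher ERK output (413.6 and 465 CPM, against 136.1 and 157.2). Their mitochondrial shares were 12.4 and 7.93%, and those of clone 8 at 4h 7.21 and 10.1%. ERK output in clone 4 was higher at 2h too, 1076 and 1277 CPM against 634.9 and 592.7. The part of these differences in the clone split was not tested.

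**Figure D4:**
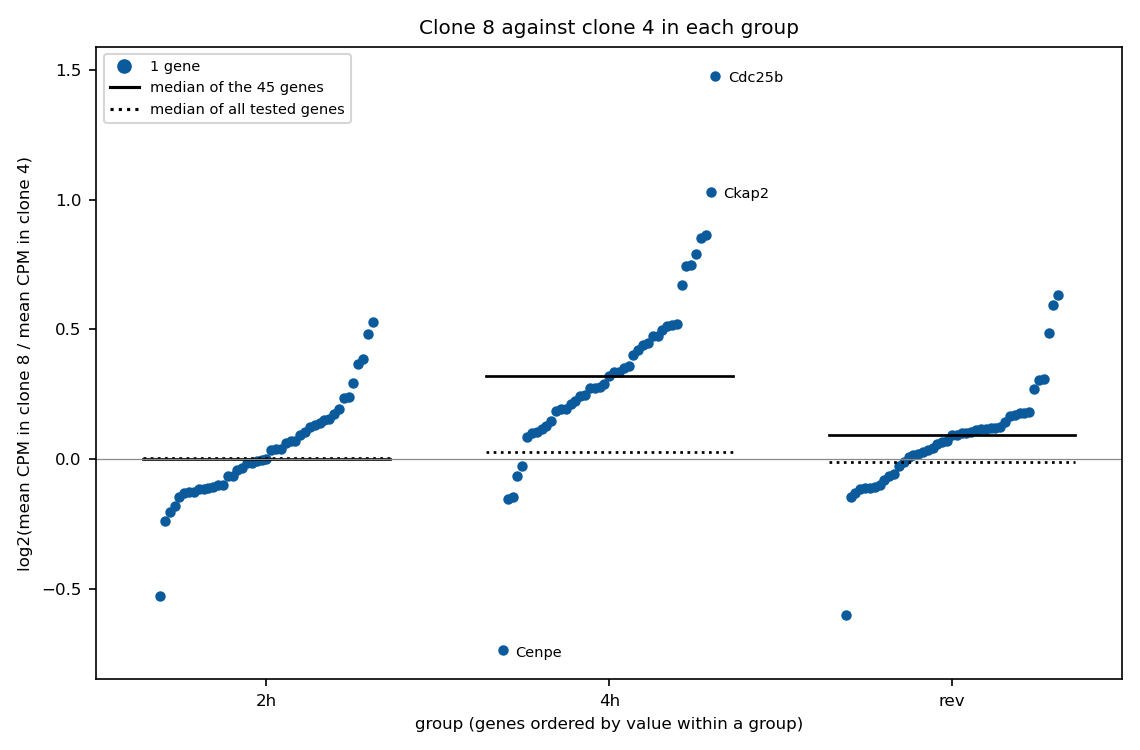
log2 of the mean CPM in clone 8 over that in clone 4 (vertical axis) for each of the 45 genes at 2h, 4h and rev (horizontal axis, genes ordered by value within a group), with 2 libraries per clone and group; solid lines are the median of the 45 genes, dotted lines that of all tested genes. At 2h both medians lie at 0, and at 4h the members' median is 0.32.

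The difference between the clones in their response was tested in a model that fits every group separately for either clone. In 4h vs 2h, 4 of the 45 were called by edgeR, all with a higher value in clone 8, where 3.14% of all tested genes were called and 1.14% in that direction. They were Kif20a (0.80 ± 0.18, adjusted p = 0.0132), Cdk1 (0.75 ± 0.18, 0.0237), Aurka (0.73 ± 0.18, 0.0302) and Birc5 (0.82 ± 0.21, 0.0324). None kept its call whichever of the 8 libraries was left out, and the count fell to 0 without the 4h library clone8_1; DESeq2 called 2 of the 45 (1.87% of all genes). The joint test over 3 interaction terms, in which clone 4 at 0h is a single library with no spread of its own, called Cdc25b (adjusted p = 0.0224) and Kif20a (0.0314), against 3.18% of all genes, and none without the 0h library clone8_1, the 0h library clone8_2 or the 4h library clone8_2. Rev vs 4h gave 0 calls by edgeR and by DESeq2 (2.8 and 1.67% of all genes), with 11 at an unadjusted p of 0.05 (24.4%, against 14% of all tested genes). The median interaction in 4h vs 2h was 0.34 over the 45 genes and 0.03 over all.

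Within clone 4, 17 of the 45 were called in 4h vs 2h by edgeR, 1 higher (Ube2c, 0.42 ± 0.13, adjusted p = 0.02) and 16 lower (35.6% of the members), where 27.3% of all tested genes were called, 13.5% higher and 13.8% lower. The largest falls were those of Ckap2 (-1.11), Cdc20 (-1.04), Cdk1 (-0.92), Aurka (-0.89) and Cdc25b (-0.85). Within clone 8, 8 were called, 6 higher (Pttg1 0.87, Ube2c 0.81, Ccnb2 0.60, Foxm1 0.55, Anln 0.54 and Ttk 0.45) and 2 lower (Cdc20 -0.51 and Cenpe -0.32), where 26.9% of all were called, 13.9% higher and 13.1% lower. Ube2c was thus called higher and Cdc20 lower in each clone, but not under all settings. With total count scaling Ube2c was not called higher in either clone, and with no filter it was not called higher in clone 4. Its call in clone 4 was also lost without the 2h library clone4_1 or the 4h library clone4_2. That of Cdc20 in clone 8 was lost without the 4h library clone8_1 or clone8_2. In rev vs 4h, 10 were called in clone 4, 8 of them higher (17% of all genes called, 8.57% higher and 8.39% lower), and 11 in clone 8, all lower (23.4% of all, 11.9% lower). Those of clone 4 were Cdc20, Ckap2, Cdc25b, Cdk1, Birc5, Kif20a, Ccnb1 and Cenpa, higher, and Pttg1 and Ube2c, lower. Those of clone 8 were Ube2c, Pttg1, Ccnb2, Foxm1, Hmmr, Nusap1, Anln, Kif20b, Plk1, Cenpf and Top2a. These counts rest on 2 libraries an arm, and a call in 1 clone and not in the other is no test of a difference.

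Averaged over the groups, clone 8 had 10 of the 45 genes higher and 1 lower than clone 4 by edgeR, where 18.5% of all tested genes were called, 10.4% higher and 8.11% lower. Higher were Foxm1 (0.62 ± 0.08, adjusted p = 5.82e-06), Cdc25b (0.55), Ckap2 (0.54), Ncapd2 (0.49), Kif11 (0.29), Cdk1 (0.29), Birc5 (0.29), Cenpf (0.23), Anln (0.21) and Smc4 (0.21). Cenpe was lower (-0.58 ± 0.06, adjusted p = 4.58e-07), with 143.1 to 181.6 CPM in all 7 clone 4 libraries and 96.1 to 125.9 in all 8 of clone 8. With the 4h library clone4_2 left out, 5 were called, and Cenpe, Ncapd2, Foxm1, Ckap2 and Kif11 stayed called whichever library was left out.

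Other genes of the same machinery were taken from 6 written lists with 125 genes, of which 124 passed the filter. From 0h to 4h, 13 were higher (10.5%, against 20.5% of all tested genes) and 29 lower (23.4%, against 18.9%) by edgeR. From 2h to 4h, 9 were higher (7.26%, against 19.7% of all) and 38 lower (30.6%, against 19.2%). From 4h to rev, 24 were higher (19.4%, against 15.1%) and 18 lower (14.5%, against 15.6%). From 0h to 2h, 5 were higher (4.03%, against 3.98%) and 1 lower (0.806%, against 2.46%). The counts of single lists below are small and are read against the same shares of all genes. Of 17 APC/C genes, subunits together with Fzr1, Fbxo5 and Ube2s, 2 were higher in 4h vs 0h (Anapc10 1.08, Cdc27 0.55) and 6 lower, led by Anapc11 (-0.94 ± 0.15, adjusted p = 6.02e-05) and Anapc13 (-0.70). Of 36 kinetochore genes 4 were higher, among them Sgo2a (0.77), and 4 lower (Nsl1 -1.20 ± 0.16, adjusted p = 5.04e-06, and Cenpw -1.01). Of 15 condensin, cohesin and separase genes 5 were higher, among them Rad21 (0.47) of the cohesin ring and its release factor Wapl (0.46), and 2 lower, Cdca5 (sororin, -1.099 ± 0.137, adjusted p = 2.45e-06) and Ncapg2 (-0.34).

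Of 15 genes of CDK1 entry control none rose and 3 fell in 4h vs 0h, Cks1b (-0.62), Nek2 (-0.60) and Ensa (-0.38). Of 13 genes of MuvB, NF-Y and the factors that bind with them, Nfyc was higher (0.48) and Lin52 (-0.88), Rbbp4 (-0.59) and Tfdp1 (-0.27) lower. Mybl2, the MYB partner of MuvB, rose by 0.90 between 2h and 4h (edgeR adjusted p = 0.0118) and fell by 0.97 in rev (adjusted p = 0.00967). Its 4h libraries varied widely, with 89.1 ± 36.5 CPM (SD). The other groups had 62.1 ± 8.21 (SD) at 0h, 47.2 ± 8.38 (SD) at 2h and 44.9 ± 3.30 (SD) in rev. Of 28 other spindle and cytokinesis genes 1 was higher in 4h vs 0h, Cep55, an abscission protein (0.85), and 11 were lower, the largest falls being those of Sapcd2 (-0.88), Kifc1 (-0.83), Spag5 (-0.64) and Iqgap3 (-0.61). Cep55 had its largest value in 2h vs 0h (1.31 ± 0.14, adjusted p = 1.81e-06), where none of the 45 genes was called.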

How the data were processed

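RNA of 15 samples of mouse EpiLCs was depleted of ribosomal RNA and sequenced. The deposited values are raw counts per gene, whole numbers without normalization by the authors; per the submitters' processing notes the tools were bcl2fastq 2.19.1 and STAR 2.5.3a and the build mm10. The counting tool, its annotation and its handling of strand are not given in the sources used here. The authors discarded 1 further sample of 0h, which was not used. Counts were fitted in R 4.3.3 with edgeR 4.0.16 (quasi-likelihood F test, two-sided, robust): filterByExpr (at least 10 counts, 15 in total) kept 13451 genes, TMM scaled the libraries, and the model held group and clone over all 15 samples, so that all groups share 1 estimate of the spread. A gene was called at a Benjamini-Hochberg adjusted p under 0.05 over all tested genes. Clone differences in response came from a fit of every group separately for either clone, tested jointly over 3 coefficients and for 4h vs 2h and rev vs 4h alone. Values after ± are the model's standard errors unless marked SD.

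Alternatives were DESeq2 1.42.0, total count scaling, leaving out the 20 most abundant and 37 mitochondrial genes, no filter, counts thinned to a common depth, the compared groups only, no clone term, a replicate block and each library left out in turn; edgeR's older (legacy) quasi-likelihood fit was added after seeing the data. The fits were tested on simulated data. Libraries of the same group and clone differed by more than counting error (chi-square per degree of freedom 4.82 to 198). The labels do not say whether replicate numbers pair the samples, and the main fit did not pair them. Reads carried no molecular identifiers. Gene positions and exon overlaps came from a gene annotation of mm10, in which 16 of the 45 genes share exon positions with another gene. Promoters came from RefSeq (GRCm38.p6). Figures were drawn with Python 3.11.15 and matplotlib 3.10.9.

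The members and lists were chosen with earlier results of these data known. Values in every library are given for the 10 called members with the smallest adjusted p in 4h vs 0h and for Ccnb1, Cdk1, Cdc20, Plk1, Aurka, Aurkb, Top2a, Mki67, Foxm1 and Cdc25b. The other per-library values (Pttg1, Birc5, Kif20a and, in part, others) were chosen after their values were seen. Every called member is named where at most 15 were called, otherwise the 5 largest rises and falls. Of the other mitotic lists, up to 5 called genes a list are named by size, and Mybl2 was chosen after its values were seen.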

Additional observations from a re-analysis of the deposited data

Results flagged for a closer look

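Each gene in each group of 4 libraries (135 in all) was checked for a single library far from the other three, by Dixon's criterion with a critical value of 0.829, which chance alone passes in about 1 of 20 groups. In 3 cases a library stood apart. Ccnb2 had 28.1 CPM in the 4h library clone4_1, the shallowest of the study, where the other 4h libraries had 41.2 to 43.5. Smc2 had 136.5 CPM in the 4h library clone4_2, with 111.1 to 115 in the others. Kif23 had 53.5 CPM in the 2h library clone8_1, with 46.4 to 47.1 in the others.

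The change from 2h to 4h differed between the clones for 4 genes in edgeR's test of the interaction, given as clone 8 minus clone 4 on the log2 scale. It was 0.80 for Kif20a (adjusted p = 0.0132), 0.75 for Cdk1 (0.0237), 0.73 for Aurka (0.0302) and 0.82 for Birc5 (0.0324). In each of them the 4h libraries of clone 4 were both below those of clone 8. The calls were lost on leaving out 3, 4, 6 and 7 of the 8 libraries, in this order.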

How the results depend on the processing

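Precision was limited by the 4h libraries, with the fewest counts, and by 3 or 4 libraries a group and 1 or 2 per clone in it. A single library in an arm (clone 4 at 0h, or after leaving 1 out) was assumed to vary like the others. The alternatives gave 1071 values for single genes: 819 kept direction and side of the threshold, 236 kept direction but lost the call, and 16 reversed, all with total count scaling. The reversed values were, in 4h vs 0h, Nusap1 -0.25, Plk1 -0.45, Anln -0.31, Ccnb2 -0.25, Ttk -0.14 and Kif20b -0.35; in 4h vs 2h, Foxm1 -0.16, Anln -0.17, Ccnb2 -0.18, Ttk -0.086 and Kif20b -0.21; in rev vs 4h, Nusap1 0.086, Plk1 0.056, Anln 0.080, Ttk 0.052 and Kif20b 0.016. This follows the shift of the median gene given above.

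In counts of the 45 genes called, 2h vs 0h (0) gave 1 with DESeq2, without the 20 most abundant and mitochondrial genes, with no filter and with the legacy fit, and 0 to 1 leaving 1 library out. 4h vs 0h (15) gave 30 with total count scaling, 8 with thinned counts and 9 to 16 leaving 1 out. 4h vs 2h (21) gave 12 without the clone term, 14 with thinned counts, 17 on the compared groups only and 17 to 21 leaving 1 out. Rev vs 4h (11) gave 4 with total count scaling, 4 with thinned counts and 9 to 12 leaving 1 out. Rev vs 0h (0) gave 7 with DESeq2, 6 without the abundant genes, 4 with no filter, 2 with thinned counts, 13 on the compared groups only, 3 with the legacy fit and 0 to 1 leaving 1 out. Clone 8 vs clone 4 (11) gave 2 with total count scaling, 6 with thinned counts and 5 to 11 leaving 1 out. Settings with counts nearer to the main one are not all listed, here or below.

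The joint interaction (2) gave 1 with DESeq2, without the abundant genes and with the legacy fit, 0 with total count scaling and with thinned counts, and 0 to 4 leaving 1 out; without the clone 4 library of 0h it could not be estimated. The interaction in 4h vs 2h (4) gave 2 with DESeq2, without the abundant genes and with the legacy fit, 0 with total count scaling and with thinned counts, and 0 to 3 leaving 1 out. That in rev vs 4h (0) gave 1 with no filter and 0 to 2 leaving 1 out. 4h vs 2h in clone 4 (17) gave 3 with total count scaling, 11 thinned and 15 to 16 leaving 1 out, and in clone 8 (8) 19 with total count scaling, 4 thinned and 3 to 6 leaving 1 out. Rev vs 4h in clone 4 (10) gave 6 with DESeq2, 2 with total count scaling, 4 thinned and 4 to 7 leaving 1 out, and in clone 8 (11) 7 with DESeq2, 0 with total count scaling, 7 with no filter, 4 thinned and 3 to 6 leaving 1 out. Thinning and leaving out libraries use fewer counts; the cause of the other shifts was not tested.

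With the replicate block, 13 genes were called in 4h vs 0h, 23 from 2h to 4h, 13 from 4h to rev, and 0 at 2h or in rev against 0h. Deviations of samples of 1 clone with the same number had correlations of -0.194 to 0.261 over 9 pairs of groups. With at most 2 samples per clone and group, these cannot show whether such samples were paired, and the labels do not say. The block, the fit without clone and that on the compared groups were not run for the clone results.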
